A study of Homo sapiens with 6 samples.

Results

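The 2 lists of H3K4me3 peaks from H1299 cells, untreated and treated with 5 mM metformin, were compared for the internal structure of the marked regions. H1299 is an established line of non-small cell lung cancer, and metformin is a biguanide drug for type 2 diabetes. The lists held 104039 of the 275570 regions called in the series, 50585 in control cells and 53454 after metformin. Peak rows with the same chromosome, start and end were joined into 1 interval, and the number of rows was kept as its number of sub-peaks. Per the labels, the cells of both lists were within the same range of passages, and metformin is the only difference given between them. The length of treatment is not given in the sources used here. Of the 6 samples of the series, the 2 H3K27me3 lists are used below as a second readout, and the input libraries are left out.

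H3K4me3 is written by the SET1 and MLL methyltransferase complexes and removed by the KDM5 demethylases. It sits mainly on the nucleosomes that flank the start sites of active and poised genes, and long stretches of it are known from genes that are central to a cell's identity. The chromatin was cut with micrococcal nuclease, which digests the linker DNA between nucleosomes, so its fragments end at nucleosome borders. Metformin inhibits respiratory chain complex I and activates the AMP-activated kinase AMPK.

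There was 1 library per condition, so the differences have no replicate check, and no test between conditions was made. Treatment, sequencing depth and preparation of the library cannot be told apart. A change in the share of marked cells cannot be told apart from a change in the amount of mark per cell. Shares are given with exact (Clopper-Pearson) 95% intervals, and these measure counting error alone. The deposited value of a sub-peak, read as a −log10 q, is used within a list and never to compare levels between lists. Gene positions on hg19, the build of the lists, were not at hand, so regions are given by position and not by gene.

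The metformin list held more sub-peaks. There were 129595 sub-peaks in control cells and 145271 after metformin, 1.12 times as many, against 1.06 times as many intervals. Intervals with a single sub-peak numbered 30418 and 31488 (1.04 times), and those with 2 numbered 5408 and 5363. Those with 5 or more numbered 8586 and 10075 (1.17 times), those with 10 or more 1876 and 2376 (1.27 times), and those with 20 or more 79 and 110 (1.39 times). Intervals with at least 2 sub-peaks made up 39.9% of the control list (95% interval 39.4 to 40.3) and 41.1% of the metformin list (40.7 to 41.5), and held 77.0% and 79.2% of the covered length.

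The spacing of sub-peaks was nearly equal in both conditions. The lists give no summit positions, so spacing was taken as interval width divided by number of sub-peaks. In intervals with 2 or more sub-peaks its median was 378.8 bp in control cells, with quartiles of 322 and 454.5 bp, and 380.0 bp after metformin, with quartiles of 326 and 449.9 bp. From 2 to 10 sub-peaks the median width went from 808 to 3552 bp in control cells, or 343 bp for each added sub-peak. After metformin it went from 811 to 3604 bp, or 349 bp for each. At equal number of sub-peaks, the median spacing was slightly larger after metformin at each number from 5 to 15. It was 370.3 and 376.5 bp at 6, and 343.6 and 355 bp at 12. At 3 and 4 sub-peaks it was slightly smaller after metformin, with 399.7 and 397.7 bp at 3. Per covered kb there were 2.62 sub-peaks in control cells and 2.63 after metformin. At equal width the lists were also alike: intervals between 2000 and 4000 bp carried a mean of 6.99 sub-peaks in control cells and 7.10 after metformin, and those of 4000 bp or more carried 13.4 and 13.5.

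**Figure D1:**
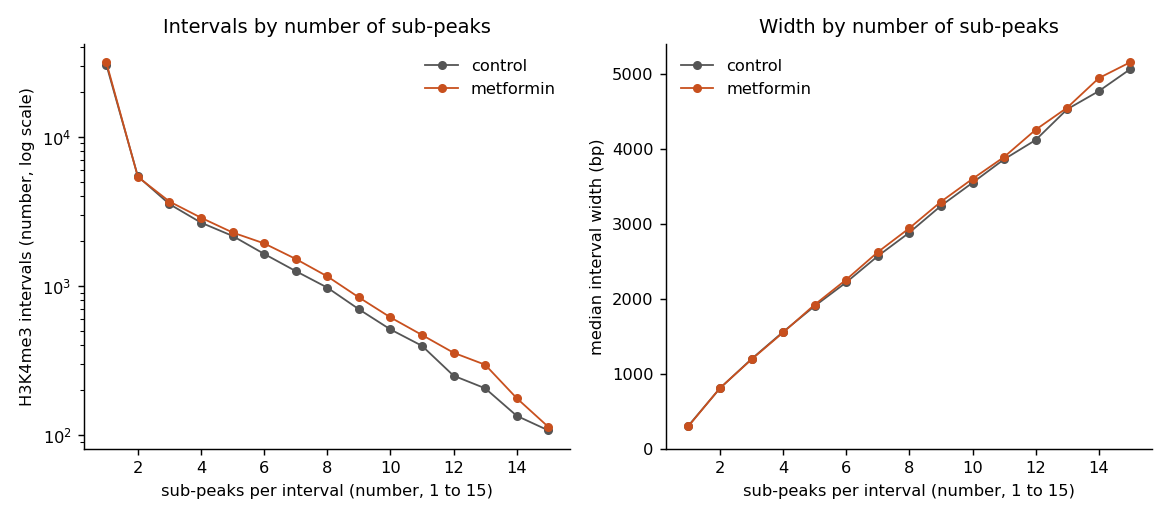
Number of H3K4me3 intervals (left, log axis) and their median width in bp (right) against the number of sub-peaks per interval, from 1 to 15, for the control list and the metformin list. The width lines of both lists run close together, 808 and 811 bp at 2 sub-peaks and 3552 and 3604 bp at 10, while metformin intervals are more numerous at high numbers of sub-peaks.

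The 3 intervals with most sub-peaks in each list included 2 regions common to both. The control interval chr3:98606231-98620522 held 43 sub-peaks, and its metformin partner chr3:98606102-98620553 held 40. The values of its sub-peaks were higher in the later rows in both lists, which is towards the right end only as far as the rows follow position. In control cells the first 14 sub-peaks had a median −log10 q of 7.24 and the last 14 a median of 25.98, with the highest at sub-peak 34. After metformin the first 13 had a median of 11.5 and the last 13 a median of 24.96, with the highest at sub-peak 36. At chr6:30647025-30660109 there were 36 sub-peaks in control cells and 40 in the metformin partner, which was 12936 bp wide against 13085 bp. The third control interval, chr1:8075015-8086131, held 32, and its partner 29. The third metformin interval, chr7:99094791-99106744, held 35 and is described below, since 6 control intervals lay there.

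A sub-peak here is named by a letter, and the letters follow the order of the rows in every interval. The highest sub-peak lay away from the ends of long intervals. Among intervals with 10 sub-peaks the highest was the first or the last in 5.11% of 509 control intervals and 8.16% of 613 metformin intervals, although these letters are 20% of the letters. Among intervals with 3 sub-peaks the shares were 64.6% and 65.5%, against 66.7% of the letters. The mean of the first and last value was a median of 0.261 of the highest value in control intervals of 10 sub-peaks and 0.241 in metformin intervals. Long intervals thus had low ends in both lists, as far as the letters follow position.

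Most of the shared sites matched 1 to 1. Overlapping intervals of both lists were linked into 31149 groups, of which 21768 (69.9%) held 1 control and 1 metformin interval. In 5137 groups (16.5%) several control intervals lay under 1 metformin interval, and these are called joined. In 2796 groups (8.98%) 1 control interval lay over several metformin intervals, and these are called divided. The remaining 1448 groups (4.65%) held several of each, up to 7 control and 9 metformin intervals.

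Sub-peak numbers were higher after metformin in all 4 kinds of linked group, by similar factors. The total was 59706 in control cells and 64611 after metformin in the 1 to 1 groups (1.08 times), and 29604 and 32115 in the joined groups (1.08 times). In the divided groups it was 16461 and 17406 (1.06 times), and in the mixed groups 12229 and 13101 (1.07 times). The groups were sorted by which list held the spanning interval, which partly sets their covered length and sub-peak number, so these values are a description only. The covered length was 1.08 times as large after metformin in the 1 to 1 groups and 1.18 times in the joined groups, but 0.932 times in the divided groups, where metformin intervals covered 6.40 Mb against 6.87 Mb. Intervals without a partner lay outside these groups and differed more in sub-peak number. There were 11468 of them with 11595 sub-peaks in the control list, and 17499 with 18038 sub-peaks in the metformin list.

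Within the 1 to 1 pairs the number of sub-peaks was often the same. It was equal in 11788 pairs (54.2%), of which 8695 had a single sub-peak in both lists. More sub-peaks after metformin were found in 6432 pairs (29.5% of the 21768) and more in control cells in 3548 (16.3%). Of the 9980 pairs that differed, 64.4% had more after metformin (95% interval 63.5 to 65.4), and 64.1% differed by 1 sub-peak. A control interval with a single sub-peak had 2 or more after metformin in 2574 pairs, and the reverse held in 999 pairs.

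The spacing of single pairs scattered widely around an unchanged middle. Of the 9500 pairs with 2 or more sub-peaks in both lists, 45.9% had a spacing within 20% of the control value. The metformin to control ratio had a median of 1.00 and quartiles of 0.813 and 1.21. Spacing was wider after metformin in 49.9% of the 9489 pairs that differed (95% interval 48.9 to 50.9). Pairs with 1 more sub-peak after metformin were a median of 160 bp wider there, pairs with 2 more 275.5 bp and pairs with 3 more 384.5 bp. Pairs with 1 fewer were a median of 33.5 bp narrower, with medians of 1222.5 bp in control cells and 1198 bp after metformin. Pairs with equal numbers were a median of 26 bp wider.

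The largest differences in sub-peak number were not always differences in width. At chr1:162531443-162536981 there were 15 sub-peaks in control cells and 22 after metformin, where the interval was 641 bp wider. At chr4:7045327-7047550 there were 4 and 11, with 1048 bp more width after metformin, nearly all of it on the right, where the edge moved out by 1036 bp. At chr3:125485750-125486545 there were 1 and 8, and the interval was 796 bp wide in control cells and 2103 bp after metformin.

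The control interval chr19:54690995-54693449 held a single sub-peak over 2455 bp, the widest such interval of the control list. Its metformin partner was 21 bp narrower and held 8 sub-peaks. Intervals of 1 kb or more with a single sub-peak numbered 610 in control cells and 545 after metformin. Another of the largest gains, chr2:37456112-37461665, had 11 sub-peaks in control cells and 17 after metformin, where it was 586 bp narrower.

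The largest losses of sub-peaks were of 7 to 9. At chr12:10868245-10875441 there were 25 in control cells and 16 after metformin, at widths of 7197 and 6813 bp. At chr20:36659085-36665927 there were 21 and 13, and the right edge lay 1381 bp further in after metformin. At chr17:45728135-45732756 there were 15 and 7, with the right edge 1258 bp further in. At chrX:77359736-77364757 there were 16 and 9, at widths of 5022 and 4690 bp. At chr6:170858772-170863260 there were 19 and 12, although both edges agreed within 15 bp.

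Where the number of sub-peaks was the same, the letter of the highest was compared. Among the 1979 pairs with the same number, 3 or more, the highest value was at the same letter in 829 (41.9%, 95% interval 39.7 to 44.1). It was at the same or a neighbouring letter in 1615 (81.6%). The shares that an even spread of the highest value over the letters would give were not computed. With 3 sub-peaks the same letter was highest in 53.2% of 630 pairs, and with 7 in 32.6% of 144 pairs. Fewer letters leave fewer places for the highest value, so these shares are not compared with each other. In the 378 pairs with both edges within 50 bp of each other, a setting added after the data were seen, the share was 40.7%.

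Joining was more frequent than dividing after metformin. Counted by interval, 6759 metformin intervals (12.6% of 53454) lay over 2 or more control intervals, and 4371 control intervals (8.64% of 50585) lay over 2 or more metformin intervals, a ratio of 1.55. Under 1 metformin interval lay 2 control intervals in 5740 cases, 3 in 864, 4 in 127 and 5 or more in 28. Under 1 control interval lay 2 metformin intervals in 3988 cases, 3 in 340, 4 in 35 and 5 or more in 8. With intervals of a list within 1 kb merged first, 884 and 379 were left, and at a highest value of 5 or more in both lists 3258 and 1934. When at least 50% of each part had to be overlapped, the numbers were 4970 and 2456.

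The shares of intervals that spanned several of the other list were also taken by width. Joining itself adds width, so the width class is partly set by what is counted. Under 500 bp, 0.460% of metformin intervals spanned several control intervals (95% interval 0.381 to 0.550). Of control intervals under 500 bp, 0.653% spanned several metformin intervals (0.556 to 0.762). In this class the control share was thus the higher, and the difference was not tested. Between 500 and 1000 bp the shares were close, at 7.53% (95% interval 7.02 to 8.07) and 7.38% (6.88 to 7.91). Between 1000 and 2000 bp they were 22.8% and 14.9%, and between 2000 and 4000 bp 41.0% and 26.8%. At 4000 bp or more they were 58.7% (95% interval 56.3 to 61.2) and 45.0% (42.2 to 47.8).

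**Figure D2:**
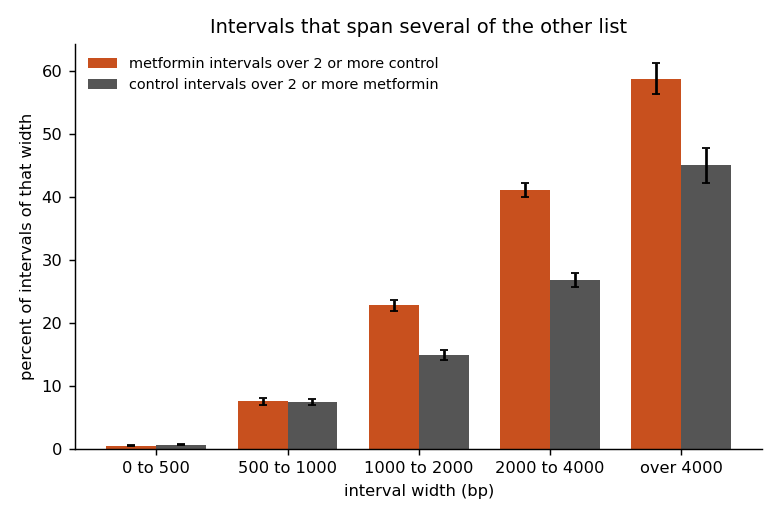
Percent of intervals of each width class in bp that lie over 2 or more intervals of the other list, for metformin intervals and for control intervals, with exact 95% intervals as error bars. The shares are 0.460% and 0.653% under 500 bp, 7.53% and 7.38% between 500 and 1000 bp, and 58.7% and 45.0% at 4000 bp or more.

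Most joined or divided groups had 2 parts, and the narrower part was mostly a single sub-peak. Of the joined groups 84.4% consisted of 2 parts, and of the divided groups 91.2%. In the 4335 joined groups of 2 parts the wider part was a median of 1288 bp and the narrower 354 bp, and the narrower part was a single sub-peak in 79.3% of groups. In the 2549 divided groups of 2 parts the medians were 1475 and 359 bp, and 82.3% of the narrower parts were a single sub-peak. The gap between the parts was a median of 229 bp where they were joined after metformin and 221 bp where they were divided. The left part was the wider in 2159 of 4335 joined groups and in 1223 of 2549 divided groups, for which no counting interval was taken. A spanning interval also covers the gap and is wider partly through how the groups were sorted. A joined metformin interval was a median of 345 bp wider than its control parts together, and a divided control interval was 164 bp wider than its metformin parts together.

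The joined metformin interval that spanned most control intervals was chr19:10526213-10536086, which is 9874 bp long with 24 sub-peaks. The control list held 8 intervals there, of 287 to 2145 bp, with 22 sub-peaks in all. They covered 70.9% of it, and the 7 gaps between them were 186 to 667 bp. The number of sub-peaks was thus nearly the same, and the difference between the lists lay in the gaps.

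At chr7:99094791-99106744, 35 sub-peaks after metformin stood against 39 in 6 control intervals of 179 to 5833 bp. The outer control intervals ran 563 bp further left and 279 bp further right, so the 39 were counted over a longer stretch. At chr11:118786394-118796290 a single metformin interval of 9897 bp replaced a control interval of 5040 bp and 5 smaller ones to its left, of 162 to 1081 bp, and it reached 952 bp further left than any of them. It held 25 sub-peaks, against 22 in the 6 control intervals. At chr19:48892312-48901601 and chr2:74775249-74783999 there were 24 sub-peaks each after metformin and 16 each in 6 control intervals. In these last regions the gain in sub-peaks was larger than at the first chromosome 19 region and the chromosome 11 region. The chromosome 7 region held fewer sub-peaks after metformin.

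The control interval that spanned most metformin intervals was chr9:21552188-21560810, 8623 bp long with 23 sub-peaks. The metformin list held 6 intervals there, also with 23 sub-peaks in all, and the gaps between them were 175 to 326 bp. The longest of the 6 was 5091 bp, and 3 of them were single sub-peaks of 188 to 380 bp to its left. At chr6:72122830-72130558 there were 21 sub-peaks in control cells and 21 in 5 metformin intervals. At chr19:38141717-38148867 there were 22 in control cells and 19 in 5. The leftmost metformin interval began 708 bp outside the control interval at the chromosome 9 site and 1501 bp outside it at the chromosome 6 site. The metformin totals at these sites were thus counted over a longer stretch. At chr19:35165075-35171820 there were 17 sub-peaks in control cells and 14 in 5 metformin intervals.

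The remaining divided region, chr6:10517939-10527152, held 27 sub-peaks in control cells. After metformin 4 intervals of 202 to 718 bp lay at its left end, and another of 12898 bp with 34 sub-peaks ran 6379 bp past its right end. This site was therefore broken up at the left after metformin. Other control intervals under the 6379 bp at the right were not looked up, so a longer marked stretch there is not shown.

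**Figure D3:**
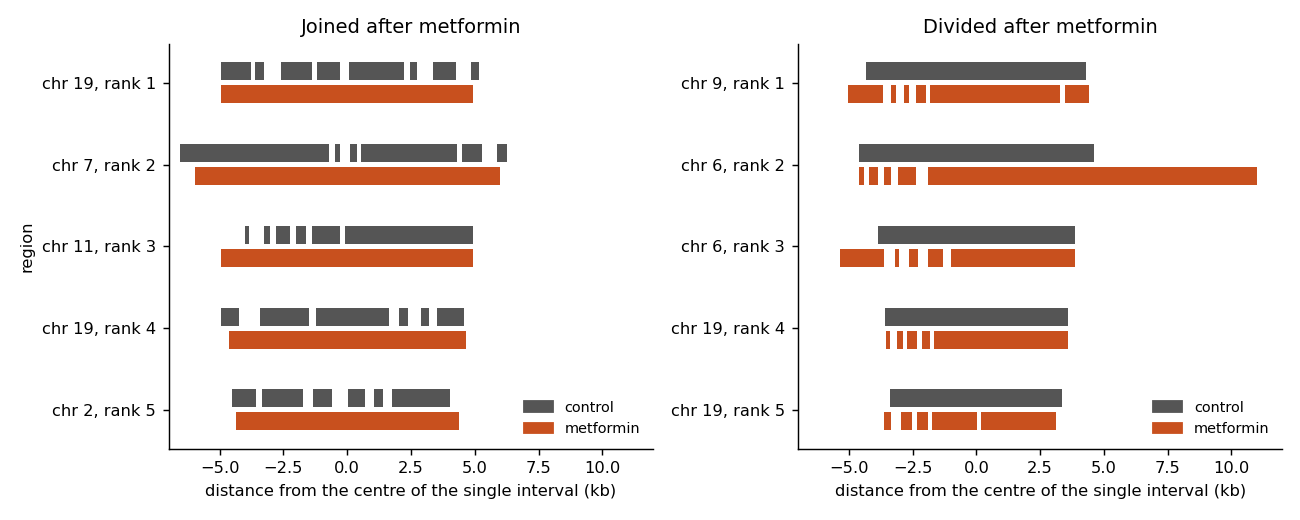
Intervals of both lists at the 5 metformin intervals that span most control intervals (left) and the 5 control intervals that span most metformin intervals (right), drawn to scale by distance in kb from the centre of the single interval. Gaps of 175 to 326 bp separate the metformin parts of the chromosome 9 region, and gaps of 186 to 667 bp separate the control parts of the first chromosome 19 region.

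The excess of joining over dividing was found on each of the 23 chromosomes 1 to 22 and X, by unequal amounts. The ratio of joined to divided intervals was highest on chromosomes 22 (141 against 62, 2.27), 19 (508 against 252, 2.02) and 16 (286 against 156, 1.83). It was lowest on chromosomes 13 (83 against 72, 1.15), 3 (367 against 286, 1.28) and 5 (327 against 247, 1.32). The median over chromosomes was 1.503. No counting interval was taken for these ratios, and the chromosomes come from 1 library per condition, so they are not replicates. The total of sub-peaks was also larger after metformin on all 23, from 1.06 to 1.25 times, with the highest value on chromosome 22.

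Edges moved by short distances and more often outward. Of the 43536 edges of 1 to 1 pairs, 37.7% lay within 50 bp of each other. Of those that differed, 25171 lay further out after metformin and 17301 further in, so 59.3% had moved outward (95% interval 58.8 to 59.7). Outward shifts had a median of 96 bp and inward shifts of 86 bp. The left and right edges gave the same picture, with 59.6% and 58.9% outward. The excess was larger at long distances: shifts of 500 bp or more numbered 1993 outward and 785 inward, a ratio of 2.54.

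**Figure D4:**
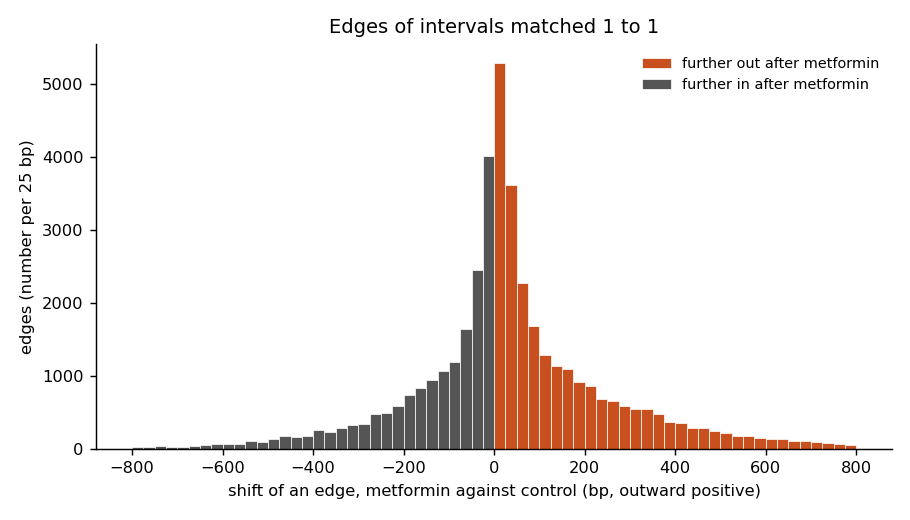
Number of edges of H3K4me3 intervals matched 1 to 1, per 25 bp of shift, with shifts further out after metformin on the right and further in on the left of 0, up to 800 bp. Both sides are highest at the shortest shifts, 5286 outward and 4012 inward within 25 bp, and the outward side is the higher throughout.

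Pairs did not grow on both sides as a rule. Both edges lay further out after metformin in 6869 pairs (31.6%) and further in in 3035 (13.9%), while in 10811 pairs (49.7%) the edges moved in opposite senses. The midpoint moved by a median of 95.5 bp in either direction, with a median signed shift of -0.5 bp. Intervals were at least 1.5 times wider after metformin in 4529 pairs (20.8%) and at least 1.5 times wider in control cells in 2194 (10.1%). The share of outward edges was highest at middle widths. It was 53.0% for pairs with a mean width under 300 bp, 62.3% between 500 and 1000 bp, 63.8% between 1000 and 2000 bp and 55.7% (95% interval 52.3 to 59.0) at 4000 bp or more.

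The pairs that gained most width mostly did so on a single side. At chr6:34499906-34500865 the left edge was the same base in both lists and the right edge lay 2346 bp further out after metformin, with widths of 960 and 3306 bp and 3 and 6 sub-peaks. At chr14:93153493-93153833 the widths were 341 and 2576 bp, with 1 and 7 sub-peaks, and 2155 bp of the difference lay on the right and 80 bp on the left. At chr9:136325106-136325309 they were 204 and 2408 bp, with 1 and 4 sub-peaks, and 2067 bp of the difference lay on the right. At chr19:36048853-36050616 they were 1764 and 3761 bp, with 5 and 10 sub-peaks, and 1794 bp of the difference lay on the left. The exception was chr7:96645601-96646676, the largest gain, with widths of 1076 and 3443 bp, which reached 1147 bp further left and 1220 bp further right after metformin.

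The largest losses of width were smaller than the largest gains. The first, at chr14:68697643-68699895, had widths of 2253 bp in control cells and 304 bp after metformin and 6 sub-peaks against 1, and the metformin interval overlapped only the right end of the control interval. At chr14:77783564-77787203 the widths were 3640 and 1721 bp, with the left edge 1899 bp further in, while the sub-peaks numbered 6 and 5. At chr6:33254114-33260556 the widths were 6443 and 4663 bp, with 15 and 14 sub-peaks. At chr12:113374411-113377495 they were 3085 and 1401 bp, and at chr12:22694281-22698535 4255 and 2580 bp, with 9 sub-peaks in control cells and 6 after metformin.

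Gaps between neighbouring intervals were closed more often after metformin than opened. An interval over 2 or more intervals of the other list covers the gaps between them. The closed gaps thus count joining and dividing again, by gap, and are not a separate result. The control list had 27020 gaps of at most 1 kb, with a median of 307 bp, and 7934 of them (29.4%) were wholly covered by 1 metformin interval. The metformin list had 29138 such gaps, with a median of 300 bp, and 4798 (16.5%) were wholly covered by 1 control interval, so that 1.65 times as many gaps were closed as opened. Gaps beside an interval without a partner were in no case among the covered ones. They were 26.7% of the control gaps and 42.4% of the metformin gaps, which lowers the metformin share more. The shares by gap width below were not corrected for this. The smallest gap was 165 bp in both lists. Closed gaps were short, with medians of 227 bp for the control gaps and 219 bp for the metformin gaps.

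Wide gaps were closed less often than narrow ones in both lists. Of control gaps of 165 to 199 bp, 56.3% were covered after metformin (95% interval 54.9 to 57.7), and of such metformin gaps 33.3% (32.0 to 34.5) were covered in control cells. From 300 to 399 bp the shares were 23.5% and 12.4%, and from 700 to 1000 bp 5.45% and 1.44%.

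Gaps that were not closed were of 2 kinds. In 11882 cases (44.0%) both flanking control intervals had metformin partners and the gap stayed at least partly uncovered, and in 7204 cases (26.7%) at least 1 flank had no metformin partner. For the metformin gaps these numbers were 11987 (41.1%) and 12353 (42.4%). In 9015 cases a gap of each list matched, each covered by the other over at least 50% of its length. These matched gaps were 33.4% of the control and 30.9% of the metformin gaps. They were narrower after metformin in 65.7% of the cases that differed (95% interval 64.8 to 66.7), with medians of 330 bp in control cells and 304 bp after metformin.

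Among gaps of any width, the longest of the control list that a metformin interval covered wholly was 1988 bp, at chr10:88161104-88163091. The metformin interval there was 3455 bp long and held 3 sub-peaks, and the control intervals on either side, of 1242 and 204 bp, also held 3. At chr5:60597728-60599662 a gap of 1935 bp was covered by a metformin interval of 2585 bp with 5 sub-peaks, against 2 in the control flanks. At chr11:62306822-62308618 a gap of 1797 bp lay under a metformin interval of 10238 bp with 23 sub-peaks. The longest gaps that opened after metformin were shorter. They were 1460 bp at chr20:62602999-62604458, 1394 bp at chr12:66271373-66272766 and 1248 bp at chr2:201985827-201987074. The control intervals that covered them held 2 sub-peaks each, with highest values of 4.82, 6.69 and 6.495.

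The larger coverage after metformin came mostly from sites marked in both conditions. Sequence covered in the metformin list alone came to 14.2 Mb and in the control list alone to 8.40 Mb, a net difference of 5.77 Mb. Outer edges of linked groups gave 6.46 Mb after metformin against 3.799 Mb in control cells, a net of 2.66 Mb. Inner gaps of linked groups gave 2.23 Mb against 1.24 Mb, a net of 0.991 Mb. Intervals without a partner gave 5.48 Mb against 3.36 Mb, a net of 2.12 Mb. Edges and inner gaps together were thus 63.3% of the net difference. With lists of equal length the part of intervals without a partner was smaller, at a net of 1.39 Mb, and that of the edges was 2.55 Mb. With intervals within 1 kb merged first these were 0.712 and 4.84 Mb, and with a highest value of 5 or more the inner gaps gave 0.457 Mb.

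**Figure D5:**
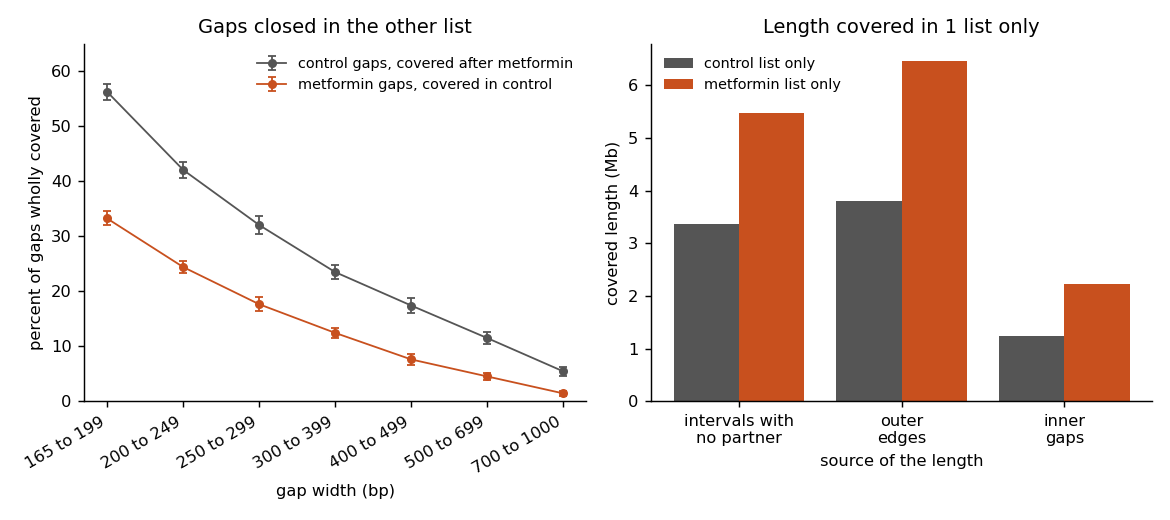
Left: percent of gaps of each width in bp in 1 list that are wholly covered by 1 interval of the other list, with exact 95% intervals; the lines fall from 56.3% and 33.3% at 165 to 199 bp to 5.45% and 1.44% at 700 to 1000 bp. Right: length in Mb covered in a single list, by source, where the metformin bar is the taller in each of the 3 sources.

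H3K27me3, the Polycomb mark of silenced genes, was a readout that the joining of H3K4me3 peaks did not use. It covered little of the H3K4me3 sequence, and more of the sequence found in a single list than of the shared sequence. Of the shared H3K4me3 length, 0.892% lay under control H3K27me3 and 1.297% under metformin H3K27me3. Of the length in the control list alone, control H3K27me3 covered 2.26% of intervals without a partner, 1.55% of outer edges and 1.06% of inner gaps. Of the length in the metformin list alone, metformin H3K27me3 covered 4.87%, 3.51% and 2.54%. In both lists the order was thus intervals without a partner, edges and inner gaps, and the metformin values were the higher at each. The whole H3K27me3 list covered 85.5 Mb in control and 93.3 Mb in treated cells. Its share of the whole genome was not computed. The values above thus give an order among the classes and do not show that any class holds more H3K27me3 than the genome at large. Its smallest interval was 159 bp in control cells and 166 bp after metformin, so its lists may have been called with different lengths. The part of this difference in the shares was not tested.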

How the data were processed

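H3K4me3 and H3K27me3 were measured by ChIP-seq, after digestion with micrococcal nuclease, in 1 library per mark and condition. The submitters' processing notes name Trimmomatic 0.38, Bowtie, MACS2 and hg19. The options and the background library used are not given in these sources. The deposited lists give 1 value per peak, read as −log10 q from the values: the smallest in the H3K4me3 lists was 1.31 in both, just above the −log10 of 0.05, which is 1.301. Peaks were called per library, not pooled, and the lists hold no counts, so depth is unknown.

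Rows sharing chromosome, start and end were joined, and positions are given 1-based. Intervals overlapping by 1 bp or more were linked. Named regions follow a rule: the 5 joined and 5 divided intervals with most parts, the 5 pairs with the largest gain and loss of width and of sub-peaks, the 3 intervals of each list with most sub-peaks, the 3 longest covered gaps of each list, and the 3 chromosomes at either end of the joined to divided ratio. The rule, comparisons and alternatives were chosen with earlier results of these data known. Alternatives were a value limit of 5, equal list length, merging within 1 kb, and other limits per comparison. Code was checked on a list altered in known ways. Python 3.11.15, pandas 2.3.3, numpy 2.4.6, scipy 1.17.1 and matplotlib 3.10.9 were used. Gene positions and sequences on hg19 were not used here, since the tables at hand are on another build.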

Additional observations from a re-analysis of the deposited data

How the results depend on the processing

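No paired analysis was possible because each condition has a single library, and no replicate could be left out. Given below, as control, then metformin, are the values that left their counting interval, the counts that moved by over 1.5 times, and the lengths and shares of length, which have no such interval and are given wherever they changed. In these alternatives metformin kept the higher value in each comparison of the conditions. At 2 kb or more, however, nearly all intervals of both lists had 2 or more sub-peaks, so this share cannot show a difference there. Spacing in pairs had no direction. The cause of the changes was not tested. With a highest value of 5 or more in both lists, 69.9% and 70.7% of intervals had 2 or more sub-peaks, 1934 control intervals were divided and 3258 metformin intervals joined, 62.0% of moved edges lay outward and 31.7% of control gaps were closed. The net Mb was then 2.39 for intervals without a partner, 2.94 for edges and 0.457 for inner gaps. H3K27me3 covered 0.682% and 1.02% of the shared length and 1.21% and 3.56% of the length in a single list.

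With lists of equal length, 43.4% of metformin intervals had 2 or more sub-peaks, the net Mb was 1.39, 2.55 and 1.07, and H3K27me3 covered 0.885% and 1.29% of shared and 1.78% and 3.87% of single-list length. With intervals within 1 kb merged, 69.2% and 70.4% had 2 or more sub-peaks, 66.9% of differing pairs had more after metformin, 379 intervals were divided and 884 joined, the net Mb was 0.712, 4.84 and 0.827, and H3K27me3 covered 0.951%, 1.38%, 1.82% and 4.44%. Within 1 kb of H3K27me3 lay 2.47% and 3.21% of shared and 3.797% and 8.15% of single-list length.

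For intervals of 2 kb or more, 99.96% and 99.97% had 2 or more sub-peaks, and 56.5% of differing pairs had more after metformin. With 5 or more sub-peaks the spacing was 363.9 and 368.6 bp, and the highest letter was the same in 34.3% of pairs. With at least 50% of each part overlapped, 2456 intervals were divided. Edges lay outward in 60.6% at shifts of 100 bp or more and in 57.9% at mean widths of 2 kb or more. Closed gaps made up 36.2% and 20.6% up to 500 bp, 26.5% and 14.9% up to 2 kb, and 41.8% and 25.9% when 50% of a gap had to be covered.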
